A study of Mus musculus with 12 samples.

Results

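The genes examined were the 10 that encode myostatin and activin ligands (Mstn, Gdf11, Inhba and Inhbb), the receptors that bind them (Acvr2a, Acvr2b and Acvr1b) and follistatin-type proteins (Fst, Fstl1 and Fstl3). They were chosen by symbol, with earlier results of these data known, and each matched 1 of the 55487 Ensembl genes in the deposited count table. The cells were myotubes of C2C12, a line of mouse myoblasts that stop dividing and fuse when serum is lowered. All cultures were differentiated for 5 days in DMEM with 2% horse serum and antibiotics, and were then kept for 24 h in DMEM with either 4% horse serum (control, 6 libraries, numbered 1 to 6) or 4% STEM (6 libraries, numbered 7 to 12), so that STEM took the place of horse serum. STEM holds proteins secreted by human embryonic stem cells after partial differentiation, with no cells in it. The study's methods list follistatin and also TGFβ1 among its proteins. The counts measure RNA of the mouse cells, not the proteins that STEM brought to the medium. A single cell line was used, and the labels do not say whether the 6 libraries of a group came from separate cultures, so p-values measure the spread between libraries, which may be technical.

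Myostatin, its close relative GDF11 and the activins are secreted TGF-beta family ligands. They bind the type II receptors ACVR2A and ACVR2B, which recruit a type I receptor such as ACVR1B, and the receptor complex phosphorylates Smad2 and Smad3. Follistatin binds activins, myostatin and GDF11 and keeps them from their receptors, and loss of myostatin or excess follistatin is known to enlarge skeletal muscle.

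STEM-treated myotubes had more RNA of all 3 follistatin-type genes than horse serum myotubes, with Fst at 2.18-fold, Fstl3 at 1.496-fold and Fstl1 at 1.47-fold. Gdf11 rose by a smaller factor (1.23-fold), while the activin subunit gene Inhbb and the receptor gene Acvr2b fell. Mstn itself was close to absent in both groups. Of the 10 genes, 9 passed the filter on low counts, and 4 of them rose and 2 fell in edgeR's quasi-likelihood test (called where the adjusted p did not exceed 0.05). The same call was reached by 36.4% of the 14175 genes tested, 18.9% in the higher and 17.4% in the lower direction, and the median of the 9 log2 fold changes was -0.06 beside a median of 0.01 over all tested genes. STEM and horse serum libraries had separate ranges for 5 of the 9 genes, against 17.2% of all tested genes. In 4 of these genes the STEM range was the higher (8.68% of all tested genes) and in 1 the lower (8.52%).

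The promoters of 3 genes are shown to place the myostatin gene beside its closest relative and beside a follistatin-type gene that rose. Each is the 250 bases before the RefSeq start of the gene on build GRCm38.p6, on the strand of the gene, and capitals mark every match to CANNTG, the E-box that myogenic bHLH factors recognize. They lie at chr1:53061390-53061639 (plus strand) for Mstn, at chr10:128891719-128891968 (minus strand) for Gdf11 and at chr10:79777024-79777273 (plus strand) for Fstl3.
Mstn: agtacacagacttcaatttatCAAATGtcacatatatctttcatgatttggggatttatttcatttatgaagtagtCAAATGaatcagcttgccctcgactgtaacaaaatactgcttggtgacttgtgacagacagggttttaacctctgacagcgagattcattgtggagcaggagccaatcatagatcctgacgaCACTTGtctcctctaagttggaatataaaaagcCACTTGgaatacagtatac
Gdf11: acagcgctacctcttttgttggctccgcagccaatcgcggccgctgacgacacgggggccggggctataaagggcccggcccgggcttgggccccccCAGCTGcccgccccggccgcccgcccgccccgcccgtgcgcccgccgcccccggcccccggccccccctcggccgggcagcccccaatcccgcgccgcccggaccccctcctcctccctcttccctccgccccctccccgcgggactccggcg
Fstl3: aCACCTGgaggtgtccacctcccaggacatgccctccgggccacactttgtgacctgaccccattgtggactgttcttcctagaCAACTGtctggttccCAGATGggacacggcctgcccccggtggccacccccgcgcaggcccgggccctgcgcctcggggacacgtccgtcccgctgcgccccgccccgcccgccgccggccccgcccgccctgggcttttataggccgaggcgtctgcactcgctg
The Mstn window held 4 matches to CANNTG, the Fstl3 window 3 and the Gdf11 window 1. Over 32851 RefSeq promoters of this length the median was 1 match, and 66.2% held at least 1. The letters CAGAC, a short Smad-type motif searched on both strands, occurred at 2 places each in the Mstn and Fstl3 windows and not in the Gdf11 window. Over all promoters the median for CAGAC was 0 matches, and 42.2% held at least 1. The letters TATAAA, also searched on both strands, occurred in all 3 windows (in Fstl3 on the opposite strand only) and in 12.4% of all promoters. Of the other promoters searched in this gene group, that of Inhba held TATAAA too, while those of Inhbb, Acvr2a, Acvr2b, Acvr1b and Fstl1 did not. For CANNTG, that of Acvr1b held 1 match and those of Inhba, Inhbb, Acvr2a, Acvr2b and Fstl1 held 0. For CAGAC, those of Acvr2a and Acvr2b held 1 match each and those of Inhba, Inhbb, Acvr1b and Fstl1 held 0. The window of Fstl1, which also rose with STEM, held no match to any of the 3 motifs. The GC content was 38.4% in the Mstn window, 81.2% in the Gdf11 window and 71.2% in the Fstl3 window, with a median of 52.4% over all promoters. These matches describe the letters and do not show that a factor bound there.

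The libraries held 13285472 to 24536264 counts each. Levels are given as CPM (counts per 1000000 counts of the TMM-scaled library) for comparisons between groups, and as RPKM, CPM per kilobase of annotated exons, for comparisons between genes. The labelled cell type was checked with 10 myotube markers, all of which were expressed, with Mylpf and Acta1 the highest in RPKM in both groups. Of 5 macrophage, 4 endothelial and 4 adipocyte markers, Adgre1, Kdr, Plin1, Lep and Cidec had no counts, and the summed CPM of each of these 3 lists was at most 5.713 in every library. Horse serum library 6 stood apart from the other 11 libraries on principal component 2 (-53.3 against 0.216 to 11.8). On component 1, which held 44.2% of the variance (component 2 held 19.8%), library 6 was at 11.2, nearest to the STEM libraries. Those were at 15.5 to 28.6 there, and the other 5 horse serum libraries at -35.5 to -24.6. In library 6 all 10 myotube markers were below those of the other horse serum libraries, with a sum of 13290 CPM against 20120 to 22520 in those 5 and 17900 to 23400 with STEM. Of these 10 markers, Mymk rose with STEM and Myog and Myh8 fell (edgeR, against 18.9% and 17.4% of all tested genes), and without library 6 the counts were 1 higher and 5 lower (against 26.3% and 24.5%). Of 6 myoblast and proliferation markers, 3 (Myf5, Mki67 and Top2a) fell with STEM with or without library 6 and none rose. Pax7, Myod1 and Ccnb1 did not pass the test (log2 fold changes -0.04, 0.03 and -0.14 in edgeR). The summed level of the list was 626 to 946 CPM with horse serum, the highest in library 6, and 522 to 592 CPM with STEM. Top2a and Mki67 had the highest means in the list (327 and 217 CPM with horse serum). The marker genes named here were chosen after their values were seen. Several results below are also given without library 6, and the part of these markers in any result was not tested. In bulk RNA, fewer cells of a type and less RNA per cell cannot be told apart.

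Among the ligands, Mstn (ENSMUSG00000026100, chromosome 1, 53061640 to 53068079 on GRCm38) encodes myostatin, the inhibitor of muscle growth. It had 3, 1, 2, 0, 0 and 0 counts in horse serum libraries 1 to 6 and 2, 0, 0, 0, 0 and 1 counts in STEM libraries 7 to 12. These were 6 of 93855567 counts with horse serum and 3 of 102860306 with STEM. No library exceeded 3 counts, the floor used here, which corresponds to between 0.122 and 0.232 CPM depending on the library. No fold is given, and a difference was not detectable at this depth (exact permutation test of mean CPM over 924 splits, two-sided, p = 0.348).
Gdf11 (ENSMUSG00000025352, chromosome 10, 128882295 to 128891718) encodes the ligand closest to myostatin in sequence. Its level ran from 19.4 to 24.6 CPM with horse serum (median 22.3) and from 26.0 to 28.0 CPM with STEM (median 27.3). Every STEM library was above every horse serum library. The edgeR fit gave a log2 fold change of 0.30 (SE 0.063, 95% interval 0.17 to 0.44, adjusted p = 0.00169), and it was 0.28 without horse serum library 6.
Inhbb (ENSMUSG00000037035, chromosome 1, 119415465 to 119422248) encodes the beta B subunit, the building block of activin B. With horse serum its level ran from 82.0 to 128 CPM (median 103), and with STEM from 83.7 to 88.2 CPM (median 84.1). The STEM libraries lay close together, whereas the horse serum libraries were spread, with library 6 the highest and library 1 below every STEM library. Its log2 fold change of -0.31 (SE 0.080, adjusted p = 0.00788 in edgeR) passed the test, as did the value of -0.24 without library 6 (adjusted p = 0.00394 in edgeR, where the 20 alternatives gave 0.000568 to 0.0296).
Inhba (ENSMUSG00000041324, chromosome 13, 16011851 to 16031621), the gene of the beta A subunit of activin A, ran from 44.2 to 61.3 CPM with horse serum (median 52.1) and from 37.6 to 53.0 CPM with STEM (median 48.4). The groups overlapped, and the log2 fold change of -0.17 did not pass the test (95% interval -0.36 to 0.02, adjusted p = 0.158 in edgeR).

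**Figure D1:**
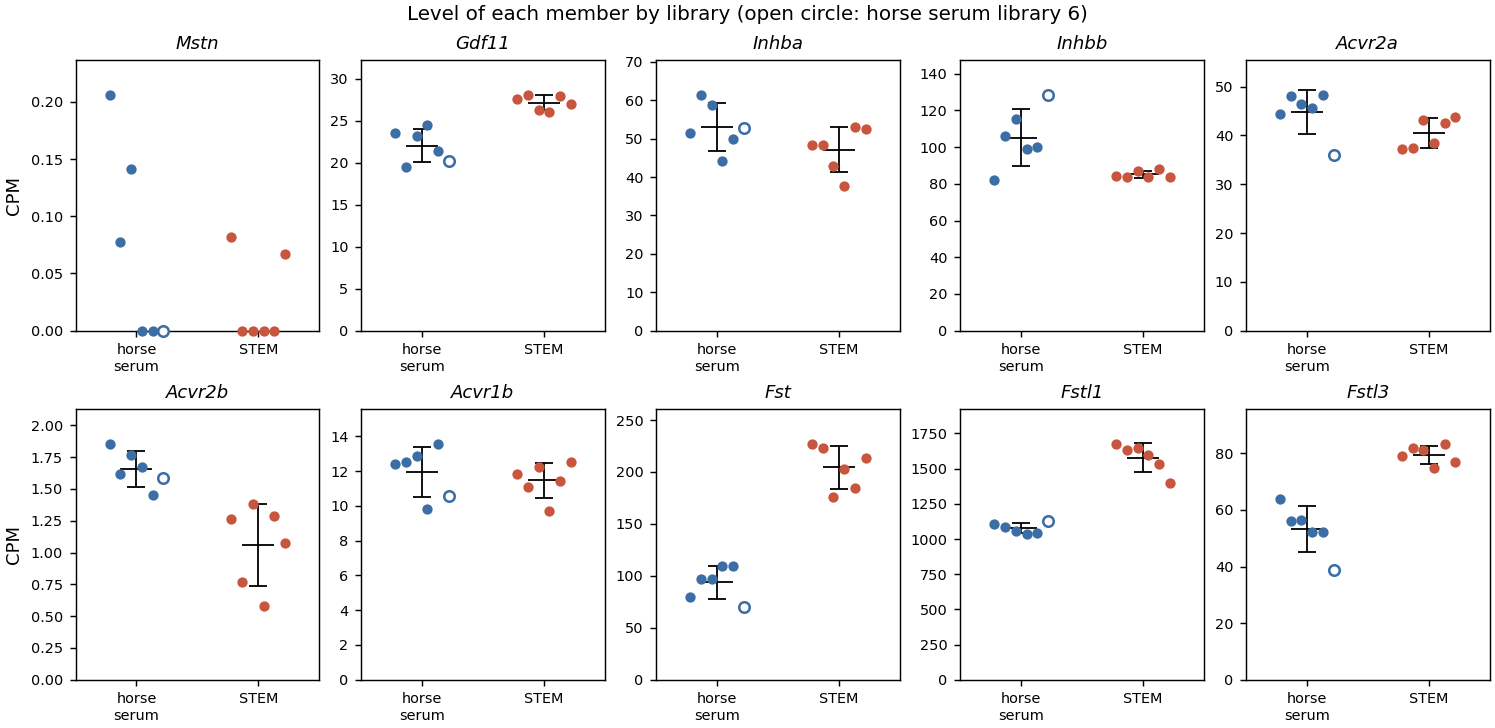
CPM of the 10 genes in each of the 12 libraries, with horse serum in blue, STEM in red and horse serum library 6 as an open circle; black bars are the mean and SD (n = 6 per group; none is drawn for Mstn) and every axis starts at 0. The groups do not overlap for Gdf11, Acvr2b, Fst, Fstl1 and Fstl3, and no library exceeds 3 counts for Mstn.

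Among the receptors, Acvr2b (ENSMUSG00000061393, chromosome 9, 119402118 to 119434995), the type II receptor with high affinity for myostatin, was the lowest of the 9 tested genes, on 9 to 31 counts per library. It ran from 1.45 to 1.85 CPM with horse serum (median 1.65) and from 0.581 to 1.38 CPM with STEM (median 1.17), and the groups did not overlap. The difference amounted to -0.63 on the log2 scale (SE 0.20, 95% interval -1.05 to -0.21, adjusted p = 0.0212 in edgeR).
Acvr2a (ENSMUSG00000052155, chromosome 2, 48814109 to 48903269), the other type II receptor gene, ran from 36.0 to 48.2 CPM with horse serum (median 46.0) and from 37.3 to 43.8 CPM with STEM (median 40.5). Horse serum library 6 had the lowest value of all 12 libraries, while the other 5 horse serum libraries (44.3 to 48.2 CPM) were all above the STEM libraries. With all libraries the log2 fold change of -0.15 did not pass the test (95% interval -0.30 to 0.01, adjusted p = 0.136 in edgeR). Without library 6 it was -0.20 and passed (adjusted p = 0.00412 in edgeR, where the 20 alternatives ran from 0.00412 to 0.247). Acvr2a overlaps Orc4 on the opposite strand, which had 783 to 1475 counts per library and a log2 fold change of -0.02, and whether the counting used the strand is not given in the sources used here. The other genes that overlap any of the 10 had at most 4 counts in any library.
Acvr1b (ENSMUSG00000000532, chromosome 15, 101174067 to 101213684), a type I receptor for activins, ran from 9.84 to 13.5 CPM with horse serum (median 12.5) and from 9.68 to 12.5 CPM with STEM (median 11.6). Its log2 fold change of -0.06 did not pass the test, with a 95% interval of -0.25 to 0.14 (adjusted p = 0.658 in edgeR).

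Among the follistatin-type genes, Fst (ENSMUSG00000021765, chromosome 13, 114452290 to 114458951) encodes follistatin itself. It ran from 69.8 to 110 CPM with horse serum (median 96.9) and from 176 to 226 CPM with STEM (median 208). The lowest STEM library, number 9, was well above the highest horse serum library, number 4. On the log2 scale Fst rose by 1.13 (SE 0.11, 95% interval 0.90 to 1.36, adjusted p = 4.3e-06 in edgeR), and 98.1% of the tested genes had a smaller absolute log2 fold change. Horse serum library 6 had the lowest Fst level, and without it the log2 fold change was 1.06.
Fstl3 (ENSMUSG00000020325, chromosome 10, 79777272 to 79782630) encodes follistatin-like 3, which binds activins and myostatin as follistatin does. It ran from 38.8 to 63.8 CPM with horse serum (median 54.2) and from 74.8 to 83.1 CPM with STEM (median 80.1), again without overlap. Library 6 held the lowest value, 38.8 CPM against 52.1 to 63.8 CPM in the other 5 horse serum libraries. Its rise on the log2 scale was 0.58 (SE 0.087, adjusted p = 0.000145 in edgeR) with all libraries and 0.50 without library 6.
Fstl1 (ENSMUSG00000022816, chromosome 16, 37776873 to 37836514) encodes follistatin-like 1, a secreted glycoprotein with a follistatin-like domain that is known for other roles than the capture of activins. It was the most abundant of the 10 genes, at 1038 to 1131 CPM with horse serum (median 1071) and 1396 to 1672 CPM with STEM (median 1614). Its STEM libraries were all above the horse serum libraries, with a log2 fold change of 0.55 (SE 0.051, 95% interval 0.44 to 0.66, adjusted p = 1.94e-06 in edgeR). Here library 6 was the highest horse serum library, and the log2 fold change without it was 0.57.

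**Figure D2:**
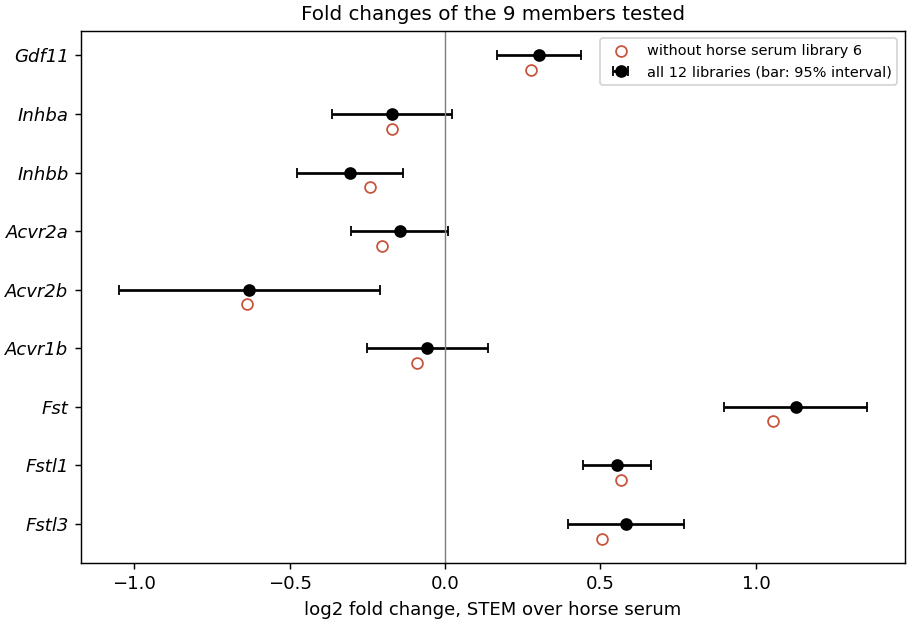
Log2 fold change of the 9 tested genes, STEM over horse serum, from edgeR (x axis), with black points and 95% intervals for all 12 libraries and open red circles for the fit without horse serum library 6. The intervals of Gdf11, Fst, Fstl1 and Fstl3 lie above 0 and those of Inhbb and Acvr2b below it, and the largest value is 1.13 for Fst.

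Per length of RNA, the order of the genes changed between the groups. With horse serum, Fstl1 was first (219 ± 7.50 RPKM, SD, n = 6), followed by Inhbb (24.7 ± 3.69 RPKM), Fstl3 (21.8 ± 3.37 RPKM) and Fst (20.4 ± 3.51 RPKM), and the ranges of these last 3 overlapped from each to the next. With STEM, Fst was second (44.6 ± 4.47 RPKM), Fstl3 the third (32.5 ± 1.30 RPKM) and Inhbb the fourth (20.01 ± 0.45 RPKM), with no overlap between neighbours. Inhba, Acvr2a and Gdf11 followed in both groups, at 8.31, 7.88 and 5.43 RPKM with horse serum and 7.37, 7.12 and 6.69 RPKM with STEM. Inhba and Acvr2a overlapped in both groups, and Acvr2a and Gdf11 overlapped with STEM and not with horse serum. Acvr1b (2.704 and 2.595 RPKM), Acvr2b (0.422 and 0.270 RPKM) and Mstn closed the order in both.
Inhbb supplied most of the ligand RNA, 64.0% ± 3.61 of the summed RPKM of the 4 ligand genes with horse serum and 58.8% ± 1.92 with STEM (SD, n = 6). Acvr2a supplied 94.9% ± 0.67 of the type II receptor RNA (Acvr2a plus Acvr2b, in RPKM) with horse serum and 96.4% ± 0.99 with STEM. The summed RPKM of Fst and Fstl3, the genes whose proteins capture these ligands, was 1.11 ± 0.22 times that of the 4 ligand genes with horse serum and 2.26 ± 0.14 times with STEM (SD, n = 6). This ratio ran from 0.716 in library 6 to 1.31 with horse serum and from 2.07 to 2.405 with STEM. In the other 5 horse serum libraries it was between 1.05 and 1.31. These shares and ratios are sums over genes chosen together and carry no test.

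**Figure D3:**
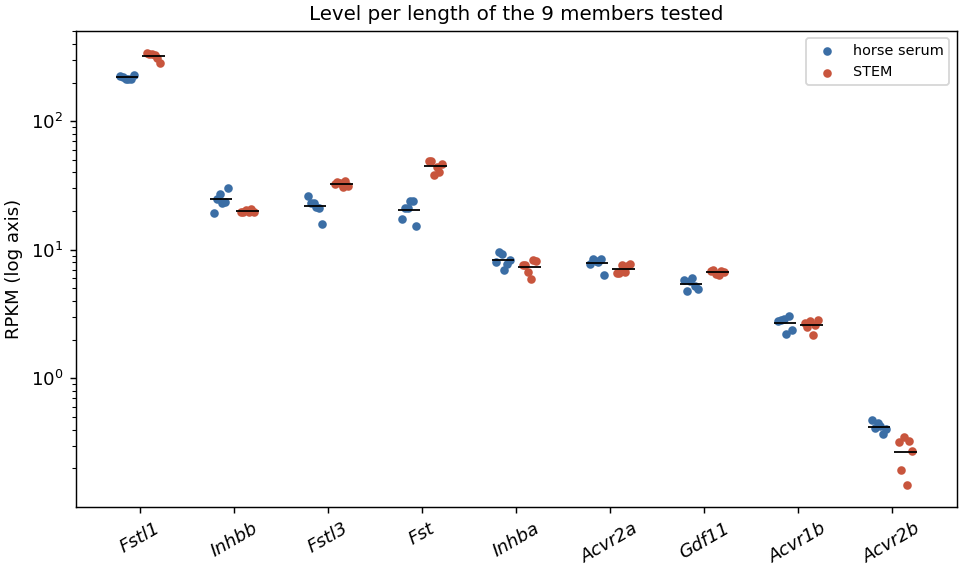
RPKM (log axis) of the 9 tested genes, ordered by their mean with horse serum, with 1 point per library, horse serum in blue, STEM in red and a black line at each mean (n = 6). Fst moves from the fourth place with horse serum (20.4 RPKM) to the second with STEM (44.6 RPKM), and Fstl1 is first in both groups.

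The rest of the pathway was read from 6 lists with 52 genes, of which 34 passed the filter on low counts. With STEM 13 of these rose and 3 fell, beside the 18.9% and 17.4% of all tested genes given above, and their median log2 fold change was 0.14. Without horse serum library 6, 18 rose and 4 fell, where 50.8% of all tested genes were called (26.3% higher and 24.5% lower).
The enzymes that cleave these ligands out of their precursors had 3 of 4 tested genes higher with STEM and none lower, and all 4 were higher without library 6. Bmp1, whose proteinase cuts the myostatin propeptide, ran from 140 to 182 CPM with horse serum and from 248 to 263 CPM with STEM (log2 fold change 0.69, SE 0.055, adjusted p = 4.2e-07 in edgeR). The proprotein convertase genes Pcsk6 (log2 fold change 0.82, adjusted p = 6.08e-05 in edgeR) and Furin (0.60, adjusted p = 0.00562 in edgeR) rose as well. For Furin, library 6 had 66.1 CPM, above the lowest STEM library at 58.5 CPM, and the other 5 horse serum libraries had at most 45.2 CPM, and without library 6 the log2 fold change was 0.745.
Of 5 tested genes for other receptors and co-receptors, Tgfbr1, a type I receptor that myostatin can also use, fell (log2 fold change -0.25, adjusted p = 0.00251 in edgeR). The BMP receptor gene Bmpr2 rose by 0.36, close to the threshold (adjusted p = 0.0496 in edgeR). Its groups overlapped, at 83.45 to 126.6 CPM with horse serum, the highest in library 6, and 94.34 to 162.7 CPM with STEM. Without library 6 its log2 fold change was 0.43 (adjusted p = 0.0283 in edgeR). Neither of 2 tested genes for other extracellular inhibitors passed the test, with log2 fold changes of -0.13 for Dcn and 0.28 for Ltbp3. Inha, the only tested gene among the other ligands, had a log2 fold change of 0.11 and did not pass either.

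Inside the cell, 3 of 12 tested genes for Smad transducers and their inhibitors rose and none fell, against 18.9% and 17.4% of all tested genes. Without library 6, 5 rose and 1 fell, against 26.3% and 24.5%. The 3 genes called with all libraries were Tgif2 (log2 fold change 0.34, adjusted p = 0.00534 in edgeR) and Skil (0.18, adjusted p = 0.0187), which encode repressors of Smad-driven transcription, and Zfyve9 (0.15, adjusted p = 0.0143), the gene of a protein that brings Smads to the receptor. Neither Smad2 nor Smad3 passed the test, nor did Smad4 (log2 fold change -0.04, adjusted p = 0.675 in edgeR). Smad2 averaged 68.8 ± 1.81 CPM in the control libraries and 64.2 ± 2.29 CPM in the STEM libraries (SD, n = 6), a log2 fold change of -0.10 (95% interval -0.18 to -0.01, not adjusted for the number of genes, adjusted p = 0.0653 in edgeR). Smad3 averaged 63.8 ± 6.58 CPM in the control libraries and 63.4 ± 3.32 CPM in the STEM libraries (SD, n = 6), a log2 fold change of -0.01 (95% interval -0.15 to 0.13, adjusted p = 0.907 in edgeR).
The list of Smad2/3-responsive genes moved in both directions. Of its 10 tested genes, 6 rose and 2 fell, against 18.9% and 17.4% of all tested genes. Its median log2 fold change was 0.31, beside 0.01 over all tested genes. Without library 6, 7 rose and 2 fell, against 26.3% and 24.5% of all tested genes. Snai1, a transcription factor gene, rose (0.68, adjusted p = 0.000352 in edgeR), and Ldlrad4, which encodes an inhibitor of Smad activation, rose by 0.44 (adjusted p = 0.00105) and by 0.52 without library 6. Ccn2, the gene of connective tissue growth factor, fell (-0.82, adjusted p = 0.000912 in edgeR). Outside the rule for named genes and chosen after its values were seen, Pmepa1, a feedback inhibitor of Smad signaling, rose (0.89, adjusted p = 0.00214 in edgeR). Trim63, the gene of a muscle ubiquitin ligase and likewise chosen after its values were seen, fell (-0.76, adjusted p = 0.00347 in edgeR). Fbxo32, another muscle ubiquitin ligase gene of this list, did not pass the test (-0.11, adjusted p = 0.221 in edgeR). In library 6, Pmepa1 (221 CPM), Trim63 (35.6 CPM) and Ccn2 (71.6 CPM) were within or next to the STEM range, and without this library their log2 fold changes were 1.09, -0.89 and -0.89.

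**Figure D4:**
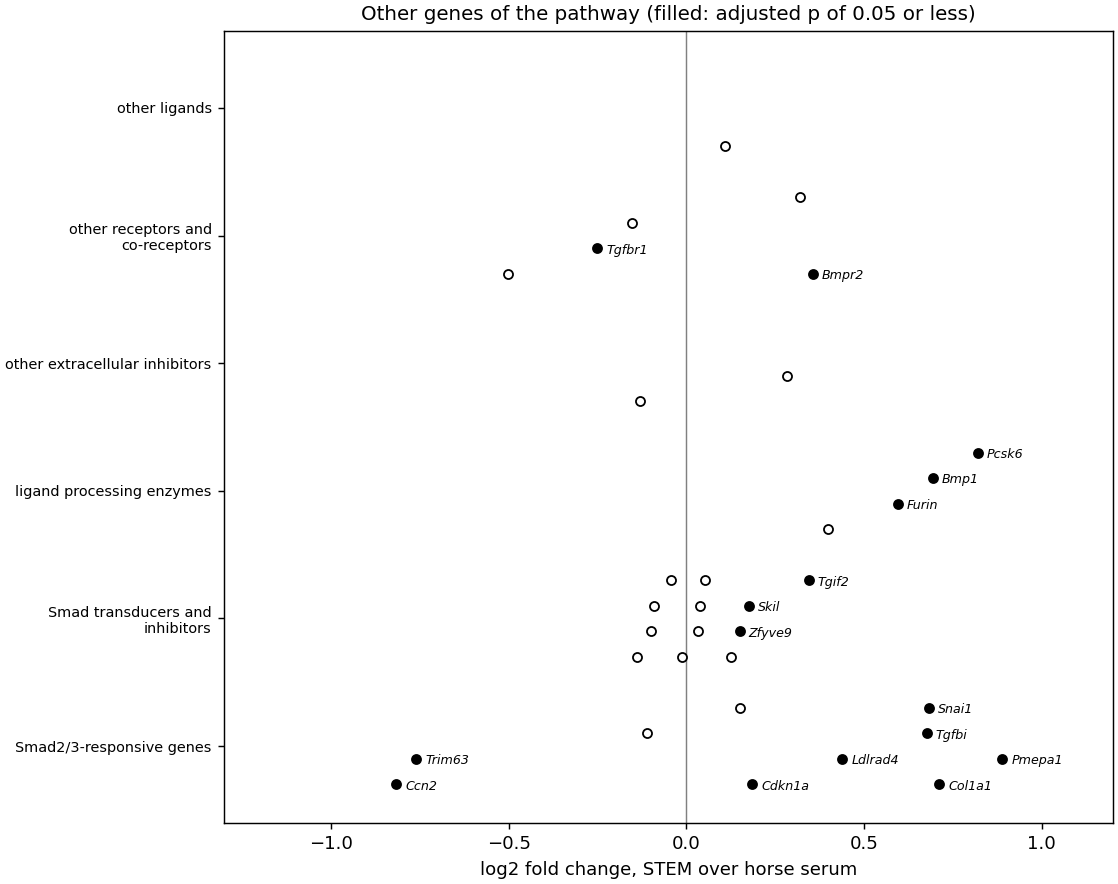
Log2 fold change, STEM over horse serum (x axis), of the 34 tested genes of 6 other pathway lists, with filled points and names for the 16 with an adjusted p of 0.05 or less. Filled points of the processing enzymes lie above 0, as do those of the list of Smad transducers and inhibitors (Tgif2, Skil and Zfyve9). Filled points of the Smad2/3-responsive genes lie on both sides, from -0.82 for Ccn2 to 0.89 for Pmepa1.

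The genes of the pathway lists that did not pass the filter were Inhbc, Inhbe, Nodal, Gdf1, Gdf3, Acvr1c, Tdgf1, Cfc1, Wfikkn1, Wfikkn2, Fstl4, Fstl5, Lefty1, Lefty2, Pcsk5, Tll2, Foxh1 and Cdkn2b. Among all tested genes, those whose log2 CPM followed Fst most closely over the 12 libraries were Idh3a (Pearson r = 0.98), Tuba4a (0.978) and Fhod3 (0.978). Fstl3 was followed most closely by Foxo6 (0.984), Tbl2 (0.97) and AU022252 (0.969), and Fstl1 by Ier5 (0.987), Kdelr2 (0.983) and Slc38a10 (0.981). For Gdf11 these were Gm3924 (0.955), Trmo (0.945) and C130013H08Rik (0.941), for Inhbb Cd2ap (0.944), Asap3 (0.938) and Ccdc80 (0.934), and for Inhba Ankrd13d (0.924), Gm37499 (0.885) and Lats2 (0.878). For the receptors they were Gm6277 (0.958), Vps37a (0.936) and Dym (0.932) with Acvr2a, Gpr19 (0.914), Il1rl1 (0.90) and Gm14636 (0.895) with Acvr2b, and Shld2 (0.838), Gm16536 (0.818) and Ell2 (0.818) with Acvr1b. The 12 points of each correlation share the contrast of STEM with horse serum and the position of library 6, so these values only describe the pattern. Gm3924 and C130013H08Rik rest on few counts, with means of 0.767 and 0.314 CPM with horse serum and 1.89 and 0.890 CPM with STEM.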

How the data were processed

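From rRNA-depleted, stranded libraries the authors deposited raw read counts per Ensembl gene, without normalization, in 12 libraries. The submitters' processing notes name STAR 2.7.3a, featureCounts 1.6.3, DESeq2 1.26.0 and build GRCm38. The annotation release and strand setting are not given in the sources used here. Symbols, coordinates and exon lengths came from GENCODE M21 (GRCm38), which held 55227 of 55487 genes. Promoters came from RefSeq (GRCm38.p6), which matched 9 of the 10 genes, and no Fst promoter was used.

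Counts were tested with edgeR 4.0.16 (robust glmQLFit and glmQLFTest, TMM, filterByExpr, 14175 genes) in R 4.3.3, with Benjamini-Hochberg adjustment over all tested genes and calls at 0.05 or less. CPM used TMM-normalized totals, and correlations used log2 CPM with a prior count of 2. The alternatives were DESeq2 1.42.0, limma-voom (limma 3.58.1), 3 other scalings, 2 other filters, thinning to the lowest total, and each library left out. The scripts were tested on simulated counts. Within-group pairs of libraries differed beyond sampling noise (chi-square per degree of freedom 3.54 to 76.6). Floors of 3 counts cover counting error only, while the 95% intervals of fold changes rest on the spread between libraries. The members and lists were chosen with earlier results of these data known. A gene of the list of Smad2/3-responsive genes is not reported here. The named genes were all 10 members, at most 3 called genes with the lowest p-values per pathway list, untested list genes by name, and the 3 genes most correlated with each tested member. Smad2, Smad3, Smad4, Dcn, Ltbp3, Inha, Pmepa1, Trim63, Fbxo32 and the marker genes were named outside this rule, after their values were seen.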

Additional observations from a re-analysis of the deposited data

Results flagged for a closer look

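In the horse serum group, Acvr2a in library 6 was far from the other libraries, at 36.0 CPM against 44.3 to 48.2 CPM in the other 5. The gap to the nearest library took 0.684 of the range of the group, where Dixon's critical value for 6 libraries is 0.625. Of the 18 groups examined in this way (9 genes in each of 2 treatments) no other was as extreme, and chance alone flags about 5% of such groups. Library 6 also had the lowest summed myotube markers, and the part of this in the Acvr2a level was not tested.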

How the results depend on the processing

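Across 20 alternatives, the 6 calls among the 9 tested genes kept their direction and stayed past the threshold wherever the gene could be tested. With a filter of at least 10 counts in every library, the number called lower with STEM was 1 in place of 2, because Acvr2b, with 9 counts in a library, was no longer tested. The log2 fold change of Acvr2a ran from -0.20 to -0.12 with each library left out, and it passed the test only without horse serum library 6. The number of all genes called ran from 4459 to 7245 with a library left out, the highest without horse serum library 6, and from 4648 to 5338 under the other alternatives. The other pathway genes called numbered 13 to 22 with a library left out and 13 to 18 otherwise. Of these, the number lower with STEM was 5 in place of 3 both with upper quartile scaling and with the filter of at least 10 counts in every library. Fst ran from 1.06 to 1.18 on the log2 scale with a library left out, and adjusted p for Acvr2b reached 0.0483. Other scalings moved the median log2 fold change of all genes by at most 0.0202. At this depth Mstn (0 to 3 counts per library) could not be compared. No paired analysis was possible because the groups share no replicate numbers.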
